A study of Drosophila melanogaster with 3 samples.

Results

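Of 9370 peaks in the conservative list of eg-GFP binding sites, 1857 lay on the X chromosome, 7512 on the 4 large autosomal arms, 0 on chromosome 4 and 1 elsewhere. Peaks were assigned to X by the chromosome of the deposited interval alone, so neither signal nor replicate support entered the choice. Eagle (gene eg) belongs to the knirps group of nuclear receptors without a known ligand. It is a zinc finger protein known from the specification of serotonergic neurons and from cell fate in the embryonic nervous system. The X chromosome of Drosophila is present in a single copy in males and in a pair in females. In males the dosage compensation complex, which carries the roX RNAs, raises transcription of X-linked genes. A ChIP-seq peak marks DNA that was recovered with the tagged protein, and its summit is the position of highest enrichment.

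Chromatin was taken from whole Drosophila melanogaster prepupae of the strain eg-GFP, with a labelled age of 2 days, in which a transgene expresses Eagle fused to enhanced green fluorescent protein. The fusion was precipitated with an antibody against GFP after shearing by sonication, and all 3 biological replicates belonged to this 1 group. The promoter that drives the transgene is not given in the labels, whole animals mix all cell types, and sex is labelled as not collected. Thresholded lists keep peaks of low irreproducible discovery rate (IDR), a measure of how reproducibly peaks rank. The thresholded lists of replicates 1, 2 and 3 held 1246, 1150 and 1549 X peaks. Of the 1857 X peaks of the conservative list, 842 (45.3%) were overlapped by a peak in all 3 replicate lists, beside 43.8% of all conservative peaks on X and the large autosomal arms. The conservative list draws on the alignments of all 3 replicates, so this overlap is not independent evidence for a peak. Read depth is unknown, and intervals below are 95% Wilson intervals that cover counting error only.

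The summits of several of the strongest X peaks, and those of a pair of further promoters that hold simple repeats, are shown to give the DNA under the binding. Each line gives the summit and 50 bases on either side from RefSeq's release 6 genome (dm6), 5′ to 3′ on the plus strand. Capitals mark a match, on either strand, to 1 of the 10 short motifs that were searched. Only windows free of annotated UTR bases are printed, which held for 720 of the 842 X summits found in all 3 replicate lists.
ph-p, chrX:2137299-2137399: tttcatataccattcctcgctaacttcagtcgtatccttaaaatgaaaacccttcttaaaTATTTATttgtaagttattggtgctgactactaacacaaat
CG32772, chrX:4910329-4910429: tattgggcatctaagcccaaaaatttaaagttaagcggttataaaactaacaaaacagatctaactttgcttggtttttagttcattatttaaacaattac
Gapdh2, chrX:15867929-15868029: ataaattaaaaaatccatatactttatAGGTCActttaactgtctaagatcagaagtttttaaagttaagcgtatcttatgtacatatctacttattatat
CG3726, chrX:5918868-5918968: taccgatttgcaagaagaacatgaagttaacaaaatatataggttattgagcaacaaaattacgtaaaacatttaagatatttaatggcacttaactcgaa
Tlk, chrX:3742175-3742275: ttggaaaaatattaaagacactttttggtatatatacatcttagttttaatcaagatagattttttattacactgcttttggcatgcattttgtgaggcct
mamo, chrX:13988948-13989048: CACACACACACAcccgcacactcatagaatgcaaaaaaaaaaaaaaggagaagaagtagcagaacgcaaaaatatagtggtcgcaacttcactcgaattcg
bi, chrX:4426868-4426968: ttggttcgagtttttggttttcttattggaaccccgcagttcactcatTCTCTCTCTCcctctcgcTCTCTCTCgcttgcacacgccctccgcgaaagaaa
The first 5 lines are X peaks of very high signal, and 3 of them (CG32772, CG3726 and Tlk) hold none of the motifs. The window at ph-p holds TATTTAT and that at Gapdh2 holds AGGTCA, the half-site of many nuclear receptors. The window at mamo opens with a run that contains CACACACA, and that at bi holds GAGAGAGA, the repeat bound by GAGA factor, read here on the other strand.

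The X peak of highest signal lay 38 bp upstream of a transcription start site (TSS) of Ugalt (FBgn0024994), which encodes a UDP-galactose transporter, and ranked first in the whole list with a signal of 3996. Signal is the authors' measure of peak strength, and its scale differs between lists. Its signal was 1431 in replicate 1, 1146 in replicate 2 and 1454 in replicate 3. It was the X peak of highest signal in each replicate's own list too. The next peak lay 494 bp upstream of a TSS of ph-p (FBgn0004861), a polyhomeotic gene that encodes a subunit of Polycomb repressive complex 1. It had a signal of 2307, with 793, 728 and 711 in the replicates. The neighbouring copy ph-d also had a promoter peak in all 3 lists, with a much lower signal of 409.

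Gapdh2 (FBgn0001092), which encodes a glycolytic enzyme, had a promoter peak of signal 2168, with 640, 663 and 866 in the replicates. Tlk (FBgn0283657), the Tousled-like kinase of chromatin assembly, had an intronic peak of signal 1851, with 646, 619 and 658. This was the narrowest spread among the 20 strongest X peaks (641 ± 20.3, SD, n = 3). The widest belonged to an intergenic peak 8760 bp from lncRNA:CR44534, with 375, 487 and 739 (534 ± 186, SD, n = 3). For this peak replicate 3 was the highest, whereas for CG3726 replicate 1 was the highest with 764, against 538 and 585.

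**Figure D1:**
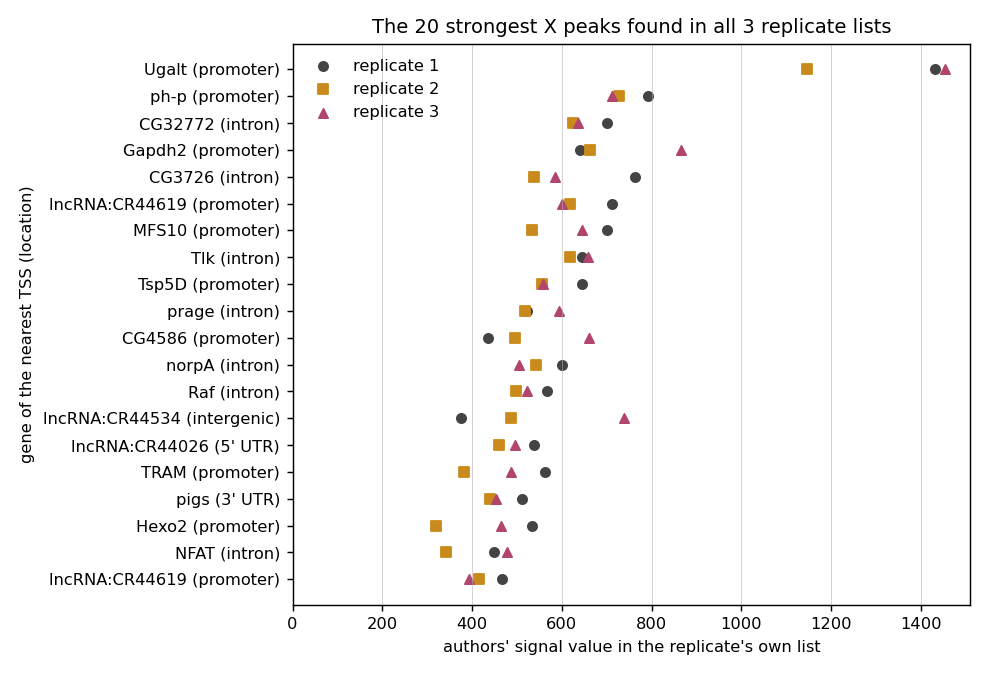
Signal of the 20 strongest X peaks that were overlapped in all 3 replicate lists. The x axis is the authors' signal value in each replicate's own list, the y axis names the gene of the nearest TSS and the location of the summit, and each symbol is 1 replicate. The Ugalt peak lies between 1146 and 1454 and no other point lies above 866.

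Beside promoters, these 20 peaks included summits in introns of norpA, the phospholipase C of phototransduction, of Raf, the kinase of receptor tyrosine kinase signalling, and of NFAT, a transcription factor gene. Raf held its strong summit (signal 1580) 5239 bp inside the gene, with 567, 498 and 522 in the replicates. Further promoter peaks belonged to MFS10, Tsp5D, CG4586, TRAM and Hexo2, and the long non-coding RNA gene lncRNA:CR44619 had a pair of peaks. The whole list was ranked by signal into 10 classes of near-equal size. All 209 X peaks of class 1, the strongest, were found in all 3 replicate lists, as were 98.9% of its autosomal peaks. The strongest X peak in no replicate list lay in an intron of egh, with a signal of 201, and the next were nearest to the start sites of Tlk (130), Vlet (128), lncRNA:CR45539 (127) and CG3857 (127).

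In the conservative list and in each replicate list, X summits lay in introns more often, and between genes less often, than summits on the large autosomal arms. Introns held 971 of the 1857 X summits (52.3%), against 42.7% on the autosomal arms. The intron share of X summits was 55.9%, 53.7% and 50.3% in the lists of replicates 1, 2 and 3, above the autosomal share in each, with differences of 13.0, 12.5 and 9.22 percentage points. The mean difference was 11.6 ± 2.05 percentage points (SD, n = 3). A two-sided exact sign-flip permutation test over the 3 replicates gave p = 0.25, the smallest p that 3 replicates allow, so no difference between X and autosomes can be called in this design.

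Intergenic summits made up 127 of the X peaks (6.84%, interval 5.78% to 8.08%), against 15.8% on the autosomal arms. In the replicates the X share was 6.98%, 5.91% and 6.91%, and the autosomal share was 17.0%, 15.2% and 14.1%, so the ranges do not overlap. The difference was -8.82 ± 1.49 percentage points (SD, n = 3), lower on X in 3 of 3 replicates, with an exact sign-flip permutation p of 0.25.

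The annotation of X differs in the same direction but by less. Intergenic sequence covers 22.6% of the bases of X and 28.4% of those of the autosomal arms, so the ratio of summit share to base share was 0.303 on X and 0.556 on the autosomes. On the single arms this ratio was 0.554 for 2L, 0.420 for 2R, 0.652 for 3L and 0.559 for 3R, and X lay below all of them. Introns cover 43.4% of X and 38.6% of the autosomal arms, with ratios of 1.21 and 1.11. On 2L the intron ratio was 1.19, close to that of X, and on 3R it was 1.03.

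**Figure D2:**
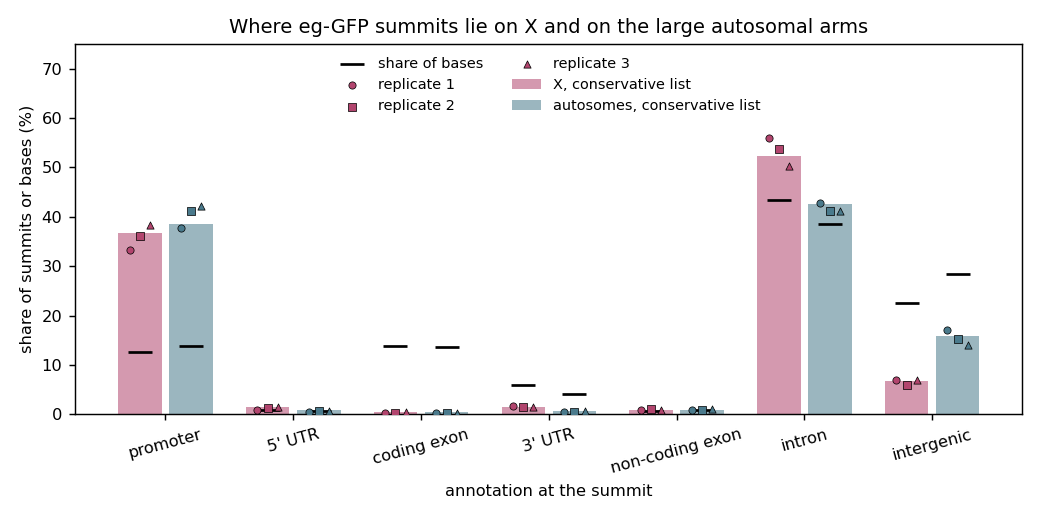
Share of summits in each annotation class on X and on the large autosomal arms. Bars are the conservative list, symbols are the 3 replicate lists and black dashes are the share of bases in that class. X bars stand at 52.3% for introns and 6.84% for intergenic sequence, against 42.7% and 15.8% on the autosomes.

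Promoters, taken as 500 bp on either side of any annotated TSS, held 681 X summits (36.7%), against 38.6% on the autosomal arms. They cover 12.6% of the bases of X and 13.8% of those of the autosomal arms, with ratios of 2.91 and 2.80. The replicate lists gave ratios of 2.64, 2.87 and 3.05 on X against 2.74, 2.98 and 3.05. Relative to bases, the order of X and autosomes thus depends on the list. In the replicate lists the promoter share on X was lower by 4.54, 4.97 and 3.70 percentage points (mean -4.40 ± 0.647, SD, n = 3, exact sign-flip permutation p = 0.25). With peaks overlapped in both other lists, the difference was -5.10 without replicate 1, -4.62 without replicate 2 and -2.97 without replicate 3. The share on 3L, 35.0%, was below that of X. Annotated 3′ UTRs held 26 X summits (1.40%), among them a peak of signal 1405 in APC7, 576 bp upstream of pigs. The autosomal share was 0.666%, and the replicate lists gave 1.69%, 1.57% and 1.55% on X against 0.564%, 0.534% and 0.658%. These 3′ UTRs cover 5.92% of the bases of X and 4.07% of those of the autosomal arms. Summits were thus rarer there than the bases on both, with ratios of 0.237 and 0.163. Coding exons, which cover 13.9% of X, held only 8 X summits.

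Around start sites, X and autosomal summits were placed differently, with the shares by distance taken over all summits and not over promoter summits alone. The 200 bp upstream of the nearest protein-coding TSS held 13.9% of X summits against 18.1% of autosomal ones. This held in the replicates, with 12.4%, 13.9% and 15.8% on X against 19.6%, 21.2% and 20.5%. From 200 to 500 bp downstream the order was the other way, with 4.58% of X summits against 2.65%, and with 3.45%, 4.09% and 4.20% in the replicates against 2.25%, 2.57% and 2.78%. Of the 681 promoter summits on X, 418 (61.4%) lay upstream of the nearest TSS, against 68.4% on the autosomal arms.

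**Figure D3:**
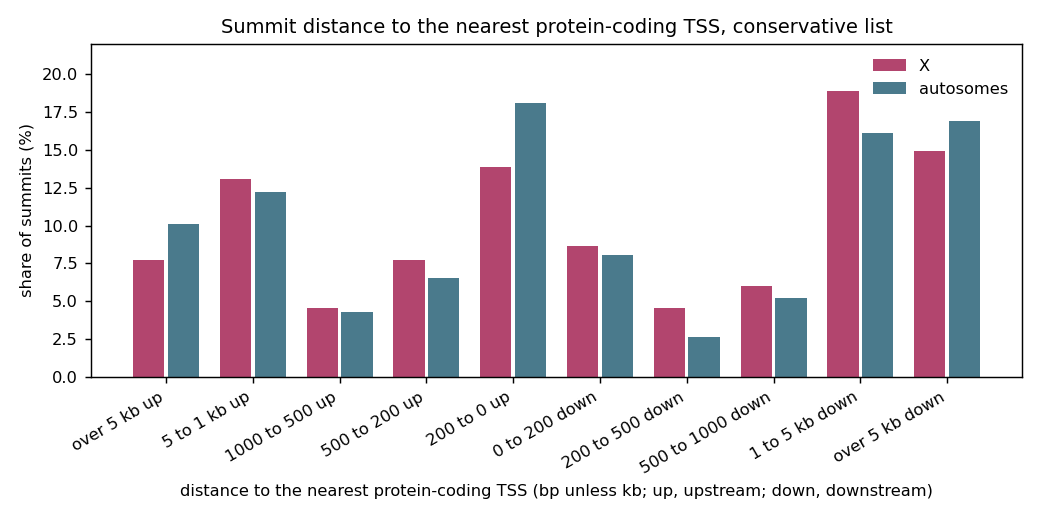
Distance of conservative summits to the nearest protein-coding TSS. The x axis runs from upstream on the left to downstream on the right in bins of unequal width, and bars give the share of X and autosomal summits. X is lower in the 200 bp upstream of the TSS (13.9% against 18.1%) and higher from 1 to 5 kb downstream (18.9% against 16.1%).

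The X chromosome carries 17.8% of the assembled length of the 5 arms and 19.8% of their conservative peaks, which is 78.9 peaks per Mb against 68.9 on the autosomal arms together and 64.9 to 73.8 on single arms. The replicate lists gave 52.9, 48.8 and 65.8 X peaks per Mb, with differences from the autosomes of 7.35, 4.14 and 11.4 (mean 7.64 ± 3.65, SD, n = 3, exact sign-flip permutation p = 0.25). Restricted to peaks overlapped in both other lists, the difference was 5.61 without replicate 1, 7.56 without replicate 2 and 5.84 without replicate 3. In the longer ranked lists before the IDR threshold, X held fewer peaks per Mb than the autosomes in replicate 1 (515 against 548) and replicate 2 (331 against 368) and more in replicate 3 (551 against 472). The direction therefore holds for thresholded peaks and turned in 2 of 3 ranked lists. Protein-coding genes are sparser on X, with 93.3 per Mb against 107. Neighbouring X summits were 3172 bp apart in the median, against 3778 bp.

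Along X the density ran from 127 peaks per Mb between 2 and 4 Mb to 3.89 in the last 1.5 Mb before the end of the assembled arm at 23.5 Mb. The median window of 100 kb held 7 summits on X and 6 on the autosomal arms. On X 29 of 235 windows (12.3%) held 0, against 245 of 1088 autosomal windows (22.5%). Windows with 20 or more summits were about equally frequent, 4.68% on X and 4.60% on the autosomal arms. The higher density of X thus went with fewer empty windows and not with more very full ones. The fullest X window held 35 summits and lies over Tlk, Rala and mir-4962. The next held 25, around CG3726 and Grip, and 24, around Smr and lncRNA:CR44619. Smr encodes a co-repressor of nuclear receptors.

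Some long X-linked genes held many summits. kirre, an adhesion gene of myoblast fusion, held 34 summits over 394 kb (0.863 per 10 kb). This is close to the density of X as a whole, 78.9 per Mb. It is below the 127 per Mb of the stretch between 2 and 4 Mb, where kirre lies. The part of gene length in this count was not tested. Tlk held 29 over 69.8 kb (4.16 per 10 kb). Next came CG1677 with 24, mamo, a zinc finger gene, with 23, and CG43658 with 21. CHES-1-like, a forkhead gene, held 17 summits in 27.0 kb, the highest density of these (6.29 per 10 kb). Hr4, a nuclear receptor of the ecdysone response, and Mnt, the partner of Max, also held 17, and sdt, a polarity gene, and spri held 15 each. Of 2196 protein-coding X genes, 92 (4.19%) held 5 or more summits within the gene body, against 2.50% on the autosomal arms. X genes were also longer, with a median of 2521 bp against 2088 bp, and these shares were not adjusted for length.

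Signal on X was close to that elsewhere. The median signal was 141 on X and 136 on the autosomal arms, a ratio of 1.03, and the ratio was 1.02 in each replicate list (mean 1.02 ± 0.00285, SD, n = 3, exact sign-flip permutation p = 0.25). Among peaks in all 3 replicate lists the ratio was 0.983, and with peaks overlapped in both other lists it was 1.01 without replicate 1, 0.977 without replicate 2 and 0.995 without replicate 3, so the direction rests on which peaks enter. X held 22.3% of the peaks of class 1 (interval 19.8% to 25.1%) and 17.8% of those of class 10, the weakest, around its share of 19.8% in all.

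Support by the replicate lists followed signal on X as elsewhere. In class 5, 40.8% of X peaks and 38.0% of autosomal peaks were in all 3 lists, and in class 8 these were 1.13% and 2.11%. Class 10 broke the order, with 31 of its 167 X peaks (18.6%) and 16.4% of its autosomal peaks in all 3 lists. These 31 X peaks had a median signal of 23.7 in the conservative list but of 60.2, 61.2 and 76.9 in the lists of replicates 1, 2 and 3, each on its own scale. Over all X peaks, 271 (14.6%) were in no list, 385 in 1, 359 in 2 and 842 in all 3, against 16.9% in no list on the autosomal arms. Intronic X peaks were in all 3 lists in 47.7% of cases, against 42.8% for autosomal introns, promoter peaks in 44.3% and 45.0%, and intergenic peaks in 38.6% and 43.2%.

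**Figure D4:**
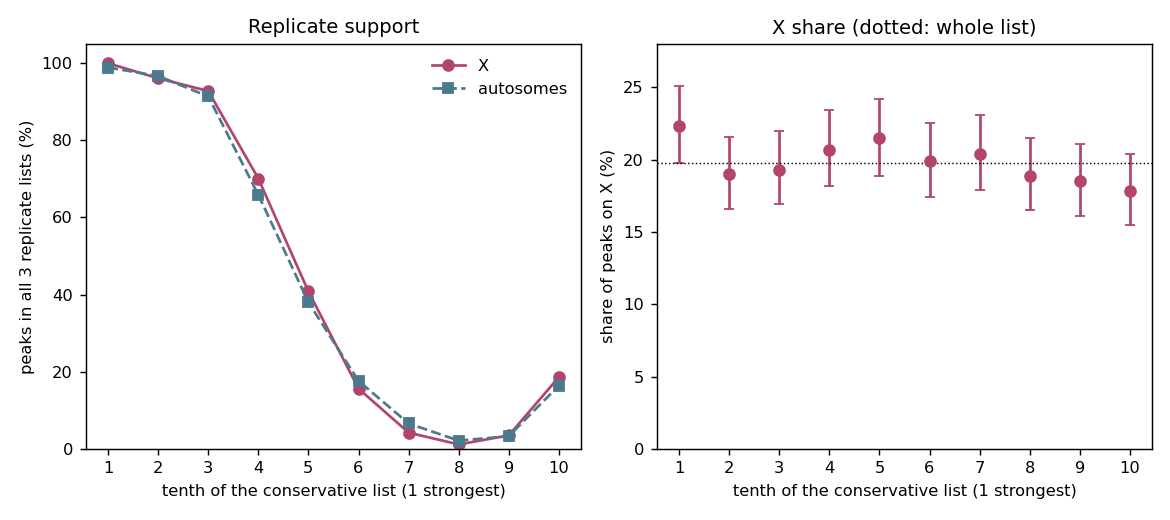
Replicate support and X share in 10 signal classes of the conservative list, from the strongest (1) to the weakest (10). On the left, points give the share of peaks overlapped in all 3 replicate lists, and on the right the share of peaks on X with 95% Wilson intervals and the share in the whole list as a dotted line. Support falls from 100% to 1.13% on X in class 8 and is 18.6% in class 10.

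Replicate 1 overlapped 60.8% of X peaks, replicate 2 overlapped 60.6% and replicate 3 overlapped 74.0%, which differ from the autosomal shares by 2.46, -1.36 and 4.39 percentage points (exact sign-flip permutation p = 0.5). The share overlapped in all 3 lists was higher on X by 1.90 percentage points, and that in both other lists by 0.424 without replicate 1, 3.38 without replicate 2 and 1.34 without replicate 3. X peaks found in replicate 3 alone numbered 249 (13.4%), against 10.9% of autosomal peaks. In the ranked lists X held 16.9% of peaks in replicate 1, 16.3% in replicate 2 and 20.2% in replicate 3. The sex of the animals is not given, and its part in these shares was not tested. At peaks in all 3 lists, the median log2 ratio of signal between replicates 3 and 2 was 0.18 on X and 0.10 on the autosomes, and that between 2 and 1 was -0.02 and 0.01.

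Of 2196 protein-coding genes on X, 681 (31.0%, interval 29.1% to 33.0%) had a conservative summit within 1 kb of a TSS, called bound here, beside 27.2% of all protein-coding genes and 26.7% on the autosomal arms. In the replicate lists the share on X was 22.8%, 21.4% and 27.9%, higher than on the autosomes by 2.08, 0.304 and 4.13 percentage points (mean 2.17 ± 1.92, SD, n = 3, exact sign-flip permutation p = 0.25). With peaks overlapped in both other lists, the difference was 1.62 without replicate 1, 2.51 without replicate 2 and 1.91 without replicate 3. The share was higher with a higher number of annotated start sites, from 20.2% of X genes with 1 TSS position to 51.5% with 2 or 3 and 76.7% with 4 or more. The autosomal shares were 19.9%, 42.9% and 75.5%. Genes with 1 TSS position differed between X and the autosomes by 0.335 percentage points, and in the replicates 13.9%, 12.3% and 17.7% of them were bound on X against 15.4%, 15.4% and 17.2%. Genes with 2 or 3 gave 39.7%, 37.9% and 47.3% on X against 33.0%, 34.2% and 39.5%. The 681 genes shared 531 peaks, because 1 summit can lie within 1 kb of more than 1 gene.

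Lists of X-linked genes with known roles differed widely in how many members were bound. Each count stands beside the 31.0% of all protein-coding X genes. That share itself ran from 16.3% of X genes under 2 kb to 53.7% of those of 10 kb or more. The lists were not matched for gene length or number of start sites. All 14 cytoplasmic ribosomal protein genes on X were bound, with a median signal of 185, beside 165 over all bound X genes. RpS28b had the strongest of these peaks (signal 403, with 129, 128 and 150 in the replicates), followed by RpS10b (316) and RpL17 (285). For 11 of the 14 the peak was in all 3 replicate lists, and the peak of RpL35 (75.8) was in none. The peak of RpL7A (144) is also that of dx and lay nearer to dx. The summit of RpS28b lay 777 bp upstream of its TSS. Of 11 mitochondrial ribosomal protein genes, mRpL33, mRpS25 and mRpL49 were bound (27.3%, interval 9.75% to 56.6%), and mRpL14, mRpL16 and mRpL22 were among those that were not. This share was close to that of all X genes in the conservative list only. In the replicate lists it was 9.09% ± 9.09 (mean, SD, n = 3), against 24.0% of all X genes. None of the 3 peaks was in all 3 replicate lists. That of mRpL49 had a signal of 8.50, was in no list and lay nearest to CG4404. The unbound gene mRpL16 had a summit within 1 kb of a TSS in the list of replicate 1 (34.2).

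Among 12 genes of muscle, adhesion and the cytoskeleton, 10 were bound (83.3%, interval 55.2% to 95.3%), beside 31.0% of all X genes. For 5 of the 10 the peak was in all 3 replicate lists. The peaks of flw (70.5), up (73.5) and mys (112) were in none, and the peak of Actn is also that of usp. Act5C, a cytoplasmic actin, had a peak of signal 885, with 341, 264 and 291 in the replicates, fliI, an actin-binding protein gene, had 649, and sqh, the myosin regulatory light chain, had 394. The genes rst and wupA were not bound. Of 5 genes of the ecdysone response and metabolism, the hormone system that drives metamorphosis, Smr (331), Hr4 (151), usp (139) and br were bound and Cyp18a1, which inactivates ecdysone, was not. usp encodes the partner of the ecdysone receptor, and its peak was overlapped in 2 replicate lists. All 3 held a summit within 1 kb of a TSS of usp (37.3, 43.2 and 59.3). br encodes the early transcription factor Broad, and its peak was in the list of replicate 2 alone.

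Signalling genes were bound in 12 of 18 cases (66.7%, interval 43.7% to 83.7%), beside 31.0% of all protein-coding X genes. They were led by sgg (739), the GSK3 kinase of the Wnt pathway, csw (462) and par-6 (383). For 4 of the 12 the peak was in all 3 replicate lists. The genes arm, baz and dsh were not bound in the conservative list. A summit within 1 kb of a TSS was in the list of replicate 1 for arm (32.2) and of replicate 3 for baz (38.2). Chromatin regulators were bound in 10 of 17 cases. They were led by ph-p (2307), nej (844), which encodes the acetyltransferase CBP, and Trf2 (418), and CoRest, Taf9 and mof were not bound. The nej peak had a signal of 237, 247 and 375 in the replicates.

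Of 24 patterning and cell fate transcription factor genes, 11 were bound (45.8%, interval 27.9% to 64.9%). In the replicate lists this share was 31.9% ± 10.5 (mean, SD, n = 3), against 24.0% of all X genes. The strongest peak was at mamo (928), with 155, 352 and 471 in the replicates, so replicate 1 was far below the others, and ct (407) and CrebB (388) followed. OdsH, Sp1 and Vsx1 were not bound. Of 23 neuronal and glial genes, 10 were bound (43.5%, interval 25.6% to 63.2%). moody, a receptor gene of the glial blood-brain barrier, had a peak of 1227, with 453, 386 and 440. dnc, the cAMP phosphodiesterase, had 985 and elav, the neuronal RNA-binding protein, had 936, with 318, 301 and 299. Appl, DIP-alpha and DIP-beta were not bound. Among genes of growth and the cell cycle, 5 of 11 were bound (45.5%, interval 21.3% to 72.0%). They were led at a promoter by Tlk (443), Top1 (399) and mei-9 (195). Cdk7, CycD and Myc were not bound, although the list of replicate 3 held a summit within 1 kb of a TSS of Myc (75.4). The intervals of the patterning, neuronal and growth lists all include the 31.0% of all protein-coding X genes. These counts thus do not set the lists apart from other X genes.

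Other X-linked families had few or no bound members. Of all X genes under 2 kb, 16.3% were bound, and the part of gene length in these counts was not tested. None of the 31 genes for chemosensory receptors and odorant-binding proteins was bound (0 of 31). Taking 3 genes as the limit that a count of 0 allows, a rule apart from the Wilson intervals, this allows a share of up to 9.68%. Gr10a, Gr10b and Gr2a are among them. Likewise, no member was bound among the 13 Stellate repeat genes (up to 23.1%), 9 genes of egg yolk and eggshell such as Cp36 and Cp38 (up to 33.3%), 8 cuticle protein genes such as Cpr11A (up to 37.5%) and 6 salivary glue genes such as Sgs4 (up to 50%). Stellate genes are near-identical copies, where reads may not map to a single place. Of 14 cytochrome P450 genes only Cyp6v1 (83.0) was bound (7.14%, interval 1.27% to 31.5%).

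**Figure D5:**
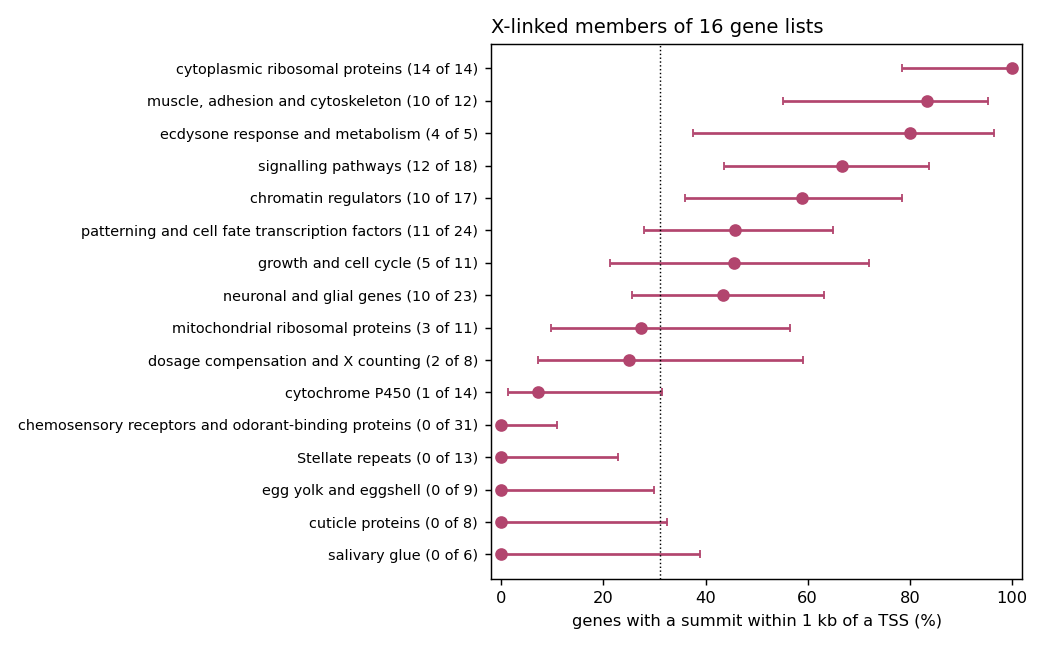
Share of X-linked members of 16 gene lists with a conservative summit within 1 kb of a TSS. Points are shares, bars are 95% Wilson intervals, the dotted line is the share over all protein-coding X genes (31.0%), and the counts stand beside each name. The lists run from 14 of 14 for cytoplasmic ribosomal proteins to 0 of 31 for chemosensory genes.

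The genes of dosage compensation and of X counting, by which the number of X chromosomes sets sex, were bound in 2 of 8 cases. The interval of this share, 7.15% to 59.1%, includes the 31.0% of all protein-coding X genes. The count thus does not set this list apart from other X genes. The list also includes the non-coding genes roX1 and roX2, whereas the 31.0% covers protein-coding genes only. Sxl, the switch gene of sex determination, had a promoter peak of signal 164, and run, an X-linked signal element, had 99.9. Neither peak was overlapped in all 3 replicate lists. Each replicate list did hold a summit within 1 kb of a TSS of Sxl (39.0, 64.9 and 86.1). roX1 and roX2, whose RNAs belong to the dosage compensation complex, held no summit in the gene body. The summit nearest to the TSS of roX1 lay 3620 bp away at yin, with a signal of 54.7 and in no replicate list. For roX2 it lay 2314 bp away at e(y)2, with a signal of 145, and was in the lists of replicates 1 and 2 (71.7 and 51.1).

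Among the 10 motifs, counted on either strand within 50 bases of each summit, the simple repeats were more frequent on X than on the autosomes, at summits and in all windows alike. CACACACA was present at 93 X summits (5.01%), against 3.02% of all X windows of the same length, laid end to end, 2.62% of autosomal summits and 1.91% of autosomal windows. On single autosomal arms 2.16% to 2.89% of summits held it. The replicates gave 2.49%, 3.65% and 4.97% on X against 1.63%, 2.36% and 2.60% on the autosomes, and the share among X peaks in all 3 lists was 3.33%, close to that of X windows. GAGAGAGA, as in the bi window above, was present at 2.58% of X summits and 0.783% of X windows, against 1.62% and 0.523% on the autosomes. The replicates gave 0.883%, 1.57% and 2.78% on X against 0.765%, 1.54% and 2.11%, so replicates 1 and 2 hardly separate X from the autosomes. Among X peaks in all 3 lists the share was 1.19%.

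The nuclear receptor half-site AGGTCA, which is seen at Gapdh2 above, was present at 1.56% of X summits and 2.54% of X windows. TATTTAT, seen at ph-p, was at 8.56% against 6.34%, and the shares on the autosomal arms were 9.80% and 6.45%. TATCGATA and GGTCACACT, core promoter words that bind DREF and M1BP, were at 0.539% and 0.377% of X summits against 0.350% and 0.123% of X windows. GGTCACACT rests on 7 X summits, was at 0.0803%, 0.174% and 0.258% in the replicates, and at 0.119% of X peaks in all 3 lists was no more frequent than in X windows. TGAGTCA (0.485%), CAGCTG (3.02%) and CACGTG (0.862%) were less frequent at X summits than in X windows (0.734%, 4.30% and 1.14%), in the conservative list and in each replicate list. TGAGTCA rests on 9 X summits (interval 0.255% to 0.919%) and CACGTG on 16 (0.531% to 1.40%), so both intervals include the window share. On the autosomal arms TGAGTCA was more frequent at summits (0.945%) than in windows (0.796%). CAGCTG (3.58% against 4.26%) and CACGTG (0.865% against 1.18%) were less frequent there too. TAGAGCA was at 0.539% of X summits against 0.805% of X windows, but the replicate lists gave 1.28%, 1.13% and 0.775%, and X peaks in all 3 lists 0.831%, so its direction depends on the list. GGTCACACT shares the letters GGTCA with AGGTCA, so 1 site can hold both.

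X summits were rich in A and T. Their mean GC content was 36.8% ± 10.4 (SD over 1857 summits), against 42.5% in X windows, and 37.5% and 42.2% on the autosomal arms. The content followed signal, from 32.3% in class 1 of X peaks to 45.0% in class 10, and on the autosomal arms from 30.2% to 45.4%.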

How the data were processed

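ChIP-seq of eg-GFP was deposited as peak lists on dm6, per the labels. Aligner, peak caller and versions: not given in the sources used here. For each peak the authors deposited a signal value, whose scale differs between lists, a score derived from the irreproducible discovery rate (IDR), whose lowest value of 830 corresponds to an IDR of 0.01, and the −log10 of a q-value, which was looked at only. Replicate lists come from 1 replicate and series lists from all 3, per the deposited descriptions. The files hold no read counts, so depth is unknown. The labelled control experiment was not analysed here.

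Starts were converted to count from 1, and the summit is the start plus the deposited offset. Genes came from Ensembl release 115 (BDGP6 version 6.54) without transposon genes, and sequence from RefSeq's release 6. Of 5421 start codons on X, 5406 read ATG. Each summit took the first fitting class of promoter (500 bp at any TSS), 5′ UTR, coding exon, 3′ UTR, non-coding exon, intron and intergenic. Lists shared a peak when intervals overlapped by at least 1 bp; 4 X peaks share their interval with another summit. X was compared with the 4 large autosomal arms in the conservative list and in each replicate list, with two-sided exact sign-flip permutation tests over 3 replicates. These measure only the spread between the samples. No peak or gene served as a unit of a test. Scripts were tested on simulated data.

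Named are the genes nearest to the 20 strongest X peaks found in all 3 lists and to the 5 strongest found in none, the 10 X genes with most summits, the genes of the 3 fullest windows, roX1 and roX2, and for each list the 3 genes with the strongest peak and up to 3 unbound ones in alphabetical order. Others (ph-d, RpL35, RpL7A, dx, br, APC7, yin, e(y)2 and the genes at which motifs are shown) were chosen after their values were seen. The members, the 16 gene lists and the tests were chosen with earlier results of these data known. Of 147 list entries, 2 carried an older symbol and 1 had no match. A search for short words at X summits, made after the data had been seen, is not reported. Software was matplotlib 3.10.9, SciPy 1.17.1, pandas 2.3.3, NumPy 2.4.6 and Python 3.11.15. Alternatives changed the peak list, thresholds, windows, overlap rule, autosomal arms and replicates.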

Additional observations from a re-analysis of the deposited data

Results flagged for a closer look

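Chromosome Y, which enters no comparison, had 32 peaks in the ranked list of replicate 1, 6 in that of replicate 2 and 5 in that of replicate 3, with signals of at most 29.0. No Y peak passed the IDR threshold in any replicate. They are listed because they lie outside the main measurement. No control list was used, and no comparison of these counts with background was made. The order of replicates differs from that of the X share of the ranked lists, which was highest in replicate 3.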

How the results depend on the processing

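Of 89 alternatives over the 7 comparisons of X with the autosomal arms, 49 moved the value by less than 1 SD of the replicate differences, 32 by more, 6 reversed it and 2 are in other units (peaks per 1000 TSS positions or genes); the causes were not tested. The 3 other thresholded series lists are numbered 1 to 3 here. The reversed ones touch signal and support. The median signal ratio of 1.03 became 0.980 with other list 3, 0.980 with peaks at or above the median signal and 0.983 with peaks in all 3 replicate lists, and leaving out a replicate gave 0.977 to 1.01. It was 1.03 and 1.05 with other lists 1 and 2, 1.02 with the highest IDR score, 1.06 against 2L and 2R and 1.02 against 3L and 3R. The support difference of 1.90 percentage points became -1.98 with other list 3.

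The density difference of 9.96 peaks per Mb became 14.8 with other list 3 and 5.83 with peaks in all 3 replicate lists, and leaving out a replicate gave 5.61 to 7.56. Per 1000 TSS positions X had 89.9 more peaks, and per 1000 protein-coding genes 202 more. The promoter difference of -1.92 percentage points was -0.591 and -0.996 with other lists 2 and 3, -4.72 above the median signal, -2.78 at the highest score, -4.10 in all 3 lists, -3.73 against 2L and 2R, -0.455 against 3L and 3R and -4.15 with a window of 200 bp, and -5.10 to -2.97 with a replicate left out. The intron difference of 9.58 became 12.7 above the median signal, 12.9 in all 3 lists and 12.1 to 13.4 with a replicate left out. The intergenic difference of -8.94 was -7.17 against 2L and 2R. The bound gene difference of 4.28 became 6.56 with other list 3, 1.92 with peaks in all 3 lists and 0.335 for genes with 1 TSS position, and 1.62 to 2.51 with a replicate left out. X and the autosomal arms were compared within each replicate, and with 1 group there is no other group to pair. Unknown depth, whole animals and a design of 3 replicates limit every comparison.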
